A study of Mus musculus with 16 samples.

Results

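The levels of 10 genes of the circadian clock were followed in bulk RNA of gingival fibroblasts (mGF), cells of the gum's connective tissue grown in primary culture from mouse explants. The members are the rows of the deposited count table that carry the symbols Per1, Per2, Per3, Cry1, Cry2, Clock, Dbp, Tef, Nr1d1 and Nr1d2, which makes 10 of the 56941 genes listed. All 10 had enough counts to be tested, among 16306 genes tested. The cells came from WT C57Bl6 mice aged 3 to 6 months, were used at passages 2 to 8 and were harvested 24 h after treatment, in 4 libraries per condition. The conditions were BSA (control), IL-1β at 1 ng/mL, palmitate at 200 μM complexed with BSA, and both agents together (palmitate + IL-1β) with doses unchanged, so that albumin was common to every condition. Palmitate is a saturated fatty acid and IL-1β an inflammatory cytokine, and the design asks how each, and both together, alter these cells. The labels do not say whether the 4 libraries of a condition came from separate animals or cultures, so the p-values measure the spread between these libraries only.

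The clock of mammalian cells is a set of feedback loops of transcription. Clock and its partner Bmal1 are bHLH-PAS proteins that bind E-boxes and activate the Per and Cry genes, whose proteins return to repress that activity. A second loop runs through Nr1d1 and Nr1d2, which encode the nuclear receptors Rev-erb alpha and Rev-erb beta and repress Bmal1, while Ror receptors activate it through the same DNA element. Dbp and Tef encode PAR bZIP factors, which are under E-box control and bind D-boxes in output genes and in some clock genes. Fibroblasts in culture carry such a clock, and the single cells of a culture drift apart in phase unless they are set by a common signal. Each condition was sampled once, at 24 h, so a value here is a level at that time, and a change of level cannot be told apart from a shift of phase or amplitude.

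Promoter sequence of RefSeq (GRCm38.p6, 250 bases before to 50 after the start of transcription) was found for 9 of the 10 members, in 13 promoters. Those of Per3 (chr4:151044616-151044915, minus strand), Cry1 (chr10:85185005-85185304, minus strand), Per1 (chr11:69098699-69098998, plus strand) and Tef (chr15:81802423-81802722, plus strand) are shown as examples. They hold elements through which the loops are known to act and belong to members that moved with palmitate. The same holds for Cry2 and Nr1d1, whose promoters are not shown. A promoter of Clock and that of Nr1d2 also held an element, but neither gene passed the threshold used below with palmitate. That of Dbp, the member with the largest change, held no motif. Whether the motifs go with the changes was not tested. Capitals mark the E-box (CACGTG), its variant the E-prime box (CACGTT, or AACGTG on the other strand), the D-box (TTATGTAA) or the core of the element bound by Ror and Rev-erb (AGGTCA, or TGACCT on the other strand), searched on both strands.
Per3: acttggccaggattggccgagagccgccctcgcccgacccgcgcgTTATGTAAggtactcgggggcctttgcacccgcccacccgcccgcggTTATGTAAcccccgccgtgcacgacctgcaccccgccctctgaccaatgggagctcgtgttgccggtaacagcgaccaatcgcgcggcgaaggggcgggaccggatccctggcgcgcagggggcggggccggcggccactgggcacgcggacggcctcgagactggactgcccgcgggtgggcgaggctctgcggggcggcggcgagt
Cry1: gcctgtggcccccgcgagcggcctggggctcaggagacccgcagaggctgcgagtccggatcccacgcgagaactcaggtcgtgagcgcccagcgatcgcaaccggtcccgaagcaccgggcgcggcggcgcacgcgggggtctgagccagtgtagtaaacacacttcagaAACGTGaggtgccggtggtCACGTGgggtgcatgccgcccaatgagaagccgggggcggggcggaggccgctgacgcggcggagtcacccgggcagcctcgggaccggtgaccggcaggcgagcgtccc
Per1: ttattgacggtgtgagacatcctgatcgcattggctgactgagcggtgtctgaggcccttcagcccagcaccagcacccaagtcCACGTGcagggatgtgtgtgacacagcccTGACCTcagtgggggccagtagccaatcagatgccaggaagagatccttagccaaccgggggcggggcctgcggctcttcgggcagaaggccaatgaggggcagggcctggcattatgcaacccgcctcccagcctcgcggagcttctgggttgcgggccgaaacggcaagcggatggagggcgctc
Tef: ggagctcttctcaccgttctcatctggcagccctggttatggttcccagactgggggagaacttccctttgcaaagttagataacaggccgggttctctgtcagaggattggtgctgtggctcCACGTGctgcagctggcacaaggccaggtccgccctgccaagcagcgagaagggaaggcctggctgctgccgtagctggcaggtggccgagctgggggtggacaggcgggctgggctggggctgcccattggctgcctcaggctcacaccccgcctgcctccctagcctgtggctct

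The Per3 promoter held 2 copies of the D-box, at bases -205 and -158 from the start, a motif found in 0.938% of the 32851 mouse promoters of that length. Cry1 held an E-box at -60 and an E-prime box at -79. Per1 held an E-box at -166 and the Ror and Rev-erb element core at -137, and Tef an E-box at -127, with a further one at -138 of its second promoter. The E-box was in 7.15% of all promoters, the E-prime box in 4.68% and the Ror and Rev-erb core in 16.3%. Among the promoters not shown, those of Cry2 and Nr1d1 held an E-prime box. That of Nr1d2 and the Clock promoter at chr5:76303453-76303752 held a Ror and Rev-erb core. The other Clock promoters and the second promoter of Per1 (chr11:69099902-69100201) held no motif. The cAMP response element (TGACGTCA), present in 1.79% of all promoters, was in 0 of the 13, and the Dbp promoter held none of the 5 motifs. A match only shows that these letters lie in this window.

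The counts assigned to genes ranged from 21234789 to 92752515 per library, and palmitate replicate 10 was the deepest, with the others at or below 35329711. The members were read with 165 to 11677 counts per library, far above the 3 counts (0.0331 to 0.146 CPM) that a count of 0 would still allow, and the SD between libraries of a condition was 1.76% to 10.8% of the mean. CPM are counts per 1000000 of the TMM-scaled library size. Counts and intervals take no account of copies made by PCR. The 8 fibroblast markers summed to 31221 to 33100 CPM per library in BSA (control), 32831 to 33355 with IL-1β, 28904 to 30960 with palmitate and 28182 to 30149 with both, whereas Krt5, Krt14 and Epcam of epithelium, Ptprc, Adgre1, Itgam and Cd3e of leukocytes and Sox10 of glia were at or below 3 counts on average. The 5 epithelial markers summed to 13.1 to 15.5 CPM in BSA (control), 11.0 to 12.7 with IL-1β, 6.56 to 7.38 with palmitate and 5.89 to 6.26 with both, while leukocyte, endothelial and glial or pericyte markers summed to at most 7.38 CPM in any library. The fibroblast sum was thus lower with palmitate, alone or with IL-1β, and the epithelial sum lower in all 3 treated conditions, each without overlap with BSA (control), and their part in the results below was not tested. The 8 fibroblast markers did not all move as their sum. At an edgeR adjusted p under 0.05, 1 was higher and 3 lower with palmitate, and 1 higher and 5 lower with both. Of all genes tested, 37.3% and 47.3% passed that threshold in these 2 comparisons. Of the 5 epithelial markers only 2 were tested, and 1 of them was called lower in each of the 3 treated conditions. With IL-1β, where 15.1% of all genes passed, the log2 fold changes of these 2 were -0.24 and 0.02. In bulk RNA, fewer cells of a type and less RNA per cell cannot be told apart.

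To place the members against each other, CPM were divided by the merged exon length of GENCODE vM39, which joins the exons of every annotated transcript. In BSA (control), Dbp was the highest at 15.7 ± 1.20 CPM per kb (SD, n = 4 here and below), followed by Nr1d2 at 14.5 ± 0.704 and Nr1d1 at 13.3 ± 0.55 CPM per kb. The libraries of Dbp and Nr1d2 overlapped, as did those of Nr1d2 and Nr1d1, so the order of these neighbours was not beyond their spread. Tef (9.93 ± 0.404), Clock (6.56 ± 0.187), Per3 (4.36 ± 0.344), Cry2 (3.49 ± 0.139) and Per1 (2.46 ± 0.144 CPM per kb) each stood apart from the next gene in every library. Per2 (1.47 ± 0.0818) and Cry1 (1.29 ± 0.0649 CPM per kb) were the lowest, and their libraries overlapped. With palmitate, Dbp stood at 10.1 ± 0.295 CPM per kb, below all libraries of Nr1d2 (14.3 ± 0.252) and overlapping those of Nr1d1 (10.6 ± 0.641). With palmitate + IL-1β, Dbp reached 8.77 ± 0.897 CPM per kb, Clock and Tef overlapped at 7.50 ± 0.134 and 7.50 ± 0.327, and Cry1 (1.75 ± 0.117) overlapped Per2 (1.64 ± 0.145 CPM per kb).

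**Figure D1:**
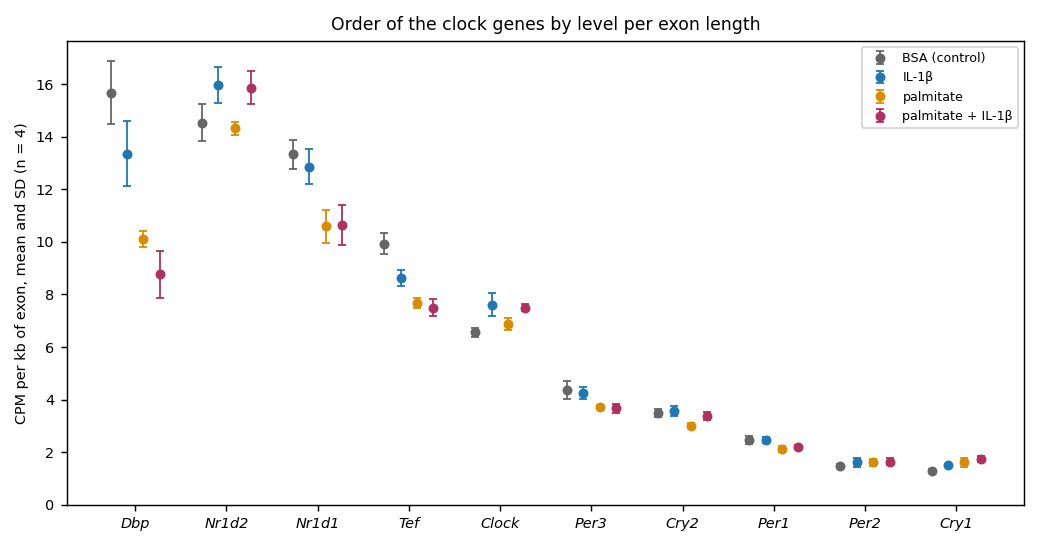
Mean level of each clock gene in CPM per kb of exon (vertical axis, from 0), ordered by the level in BSA (control), with 1 point per condition and bars of 1 SD over 4 libraries. Dbp falls from 15.7 CPM per kb in BSA (control) to 8.77 with palmitate + IL-1β, while Nr1d2 stays between 14.3 and 16.0.

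Palmitate against BSA (control) was the comparison in which the saturated fatty acid acted alone. Of the 10 members 7 were called at an adjusted p under 0.05 (edgeR quasi-likelihood test, Benjamini-Hochberg over all genes tested), of which 6 fell (Per1, Per3, Cry2, Dbp, Tef and Nr1d1) and 1, Cry1, rose. Of all genes tested, 37.3% were called, 19.8% higher and 17.5% lower. With upper-quartile scaling the share of higher genes among all called was 37.1% in place of 53.1%, and the 7 members kept their calls and directions. The median log2 fold change was -0.21 over the members and -0.0030 over all genes tested. Per2, Clock and Nr1d2 were not called. Overlap of libraries is described gene by gene below, and the share of all genes tested whose libraries separate was not computed.

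Dbp (chr7:45354512-45359627, plus strand, GRCm39), the PAR bZIP factor that is a direct E-box target of the clock, showed the largest change of the 10. The control libraries read 57.5, 56.1, 48.2 and 55.8 CPM, and those with palmitate 35.2, 33.9, 36.4 and 34.9 CPM. IL-1β libraries read 43.5, 49.8, 50.2 and 41.9 CPM, and those with both agents 31.5, 28.7, 34.3 and 27.3 CPM. All palmitate libraries, with or without IL-1β, lay below every BSA (control) and IL-1β library, whereas the IL-1β and BSA (control) ranges overlapped. The fitted log2 fold change was -0.63 with palmitate (SE 0.07, adjusted p = 2.01e-08, edgeR), which left 0.644 of the control level, and -0.84 with both (SE 0.07, adjusted p = 9.06e-11), which left 0.56. On this scale 6.17% of all genes tested lay lower than Dbp with palmitate and 4.95% with both. On its opposite strand Sphk2 shares 15.5% of the Dbp exons. Counting was by strand, but the sources differ on the library kit, so whether strand separated the reads of overlapping genes was not settled. Sphk2 itself differed by -0.20 with palmitate, -0.26 with IL-1β and -0.14 with both on the log2 scale, and the last was not called (edgeR adjusted p = 0.0899).

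Tef (chr15:81686622-81711064, plus strand), a second PAR bZIP factor with the same binding site, moved the same way. Its fitted change was smaller with palmitate and with both, and similar to that of Dbp with IL-1β. Its level was 81.1, 82.9, 86.0 and 78 CPM in the BSA (control) libraries, 68.5, 69.9, 73.3 and 73.4 CPM in those with IL-1β, 64.9, 63.2, 61.1 and 64.4 CPM in those with palmitate, and 60.9, 65.9, 59.8 and 61.1 CPM with both. The 4 control libraries were above all 12 others, and every IL-1β library was above every library with palmitate. Log2 fold changes against BSA (control) were -0.37 with palmitate (SE 0.04, adjusted p = 3.11e-08, edgeR), -0.20 with IL-1β (SE 0.04, adjusted p = 0.00136) and -0.40 with both (SE 0.04, adjusted p = 3.86e-09). Of the 10 members, Tef and Dbp were the ones called lower against BSA (control) with each of the 3 treatments.

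Nr1d1 (chr11:98658752-98666188, minus strand), which encodes Rev-erb alpha, read 40.7, 43.5, 44.9 and 43.8 CPM in BSA (control) and 32.0, 33.2, 35.9 and 36.2 CPM with palmitate. With IL-1β it read 43.8, 40.7, 39.3 and 43.1 CPM, and with both agents 36.2, 34.3, 36.4 and 31.1 CPM. The libraries with palmitate did not overlap those without it, and IL-1β alone overlapped BSA (control). The log2 fold change was -0.33 with palmitate (SE 0.06, adjusted p = 1.22e-05, edgeR) and -0.32 with both (SE 0.06, adjusted p = 1.31e-05), against -0.05 with IL-1β (adjusted p = 0.603). Thra, a thyroid hormone receptor gene on the opposite strand, shares 52.3% of the Nr1d1 exons and was also called lower, with log2 fold changes of -0.39 with palmitate, -0.28 with IL-1β and -0.51 with both. The part of these shared bases in the Nr1d1 values was not tested.

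Its paralog Nr1d2 (chr14:4230545-4266624, plus strand), which encodes Rev-erb beta, did not follow. Nr1d2 read 125, 128, 139.7 and 133 CPM in BSA (control) and 133, 129, 129.6 and 127 CPM with palmitate, an overlapping pair of ranges (log2 fold change -0.02, 95% interval -0.11 to 0.07, adjusted p = 0.734, edgeR). It read 138, 142, 146 and 153 CPM with IL-1β and 143, 149, 146 and 136 CPM with both, higher than in BSA (control) by log2 0.14 (adjusted p = 0.0312) and 0.13 (adjusted p = 0.0162). The libraries of both overlapped those of the control. The IL-1β call was lost with upper-quartile scaling (adjusted p = 0.147), without an expression filter (0.116) and in a fit of only the 8 libraries compared (0.0692), and the call with both agents was lost with upper-quartile scaling (0.352) and without a filter (0.177). The IL-1β call was lost without BSA (control) replicate 1 or 2 or IL-1β replicate 7 or 8 (adjusted p 0.0803 to 0.152). The call with both agents was lost without BSA (control) replicate 1 or 2 or palmitate + IL-1β replicate 13 or 14 (adjusted p 0.0514 to 0.123).

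Among the repressors of the first loop, Cry1 (chr10:84967560-85021252, minus strand) rose where the others fell or were not called. It read 6.22, 6.30, 6.33 and 6.92 CPM in the BSA (control) libraries, 7.24, 7.65, 7.22 and 7.79 CPM in those with IL-1β, 8.50, 8.67, 8.30 and 6.78 CPM in those with palmitate and 9.24, 8.60, 9.04 and 7.92 CPM with both. Palmitate replicate 12 was the single library with palmitate inside the control range. The log2 fold change was 0.34 with palmitate (SE 0.09, adjusted p = 0.00304, edgeR) and 0.44 with both (SE 0.09, adjusted p = 0.000132). With IL-1β alone it was 0.21 (95% interval 0.03 to 0.40), which was not called (adjusted p = 0.12), although its 4 libraries were above all 4 of the control.

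Cry2 (chr2:92233894-92264474, minus strand), the other cryptochrome, was lower with palmitate alone. Its levels were 30.2, 31.2, 30.1 and 28.3 CPM in BSA (control) and 24.9, 26.8, 25.3 and 26.3 CPM with palmitate, with no overlap (log2 fold change -0.21, SE 0.05, adjusted p = 0.00198, edgeR). With IL-1β it read 28.3, 30.7, 31.4 and 31.9 CPM and with both 28.1, 29.7, 30.4 and 27.8 CPM, ranges that overlapped the control (log2 0.03 and -0.05, adjusted p = 0.777 and 0.496). With upper-quartile scaling the last of these was called lower (log2 -0.13, adjusted p = 0.0456). The difference between the palmitate and the palmitate + IL-1β libraries is given below.

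The 3 Period genes, whose proteins carry the Cry proteins to their targets, differed among themselves. Per3 (chr4:151081373-151129140, minus strand) read 49.4, 48.3, 42.4 and 43.0 CPM in BSA (control), 39.5, 37.9, 40.0 and 38.5 CPM with palmitate and 40.7, 39.0, 38.3 and 36.4 CPM with both, so all 8 libraries with palmitate were below all 4 of the control. Its log2 fold change was -0.24 with palmitate (SE 0.05, adjusted p = 0.000695, edgeR), -0.25 with both (SE 0.05, adjusted p = 0.000324) and -0.04 with IL-1β (adjusted p = 0.721). Per1 (chr11:68986035-69002300, plus strand), which also answers cAMP and glucocorticoid signals, ranged from 17.2 to 19.6 CPM in BSA (control), 17.6 to 19.8 with IL-1β, 15.1 to 17.3 with palmitate and 16.3 to 17.4 with both. It was called lower with palmitate (log2 fold change -0.21, SE 0.06, adjusted p = 0.00731) and with both (-0.15, SE 0.06, adjusted p = 0.0426), and control replicate 3, at 17.2 CPM, lay within both ranges. The second of these calls was lost without BSA (control) replicate 1, 2 or 4 or palmitate + IL-1β replicate 14, 15 or 16 (adjusted p 0.0511 to 0.105). Per2 (chr1:91343700-91387069, minus strand) was between 8.91 and 12.0 CPM in all 16 libraries and was not called against BSA (control). Its log2 fold change was 0.14 with palmitate (95% interval -0.04 to 0.31), 0.13 with IL-1β (-0.05 to 0.31) and 0.16 with both (-0.01 to 0.34), and the last passed the threshold without palmitate + IL-1β replicate 15 (adjusted p = 0.0415).

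Clock (chr5:76342860-76452846, minus strand), the activator of the first loop, was higher with IL-1β. It read 109, 114.4, 117 and 112 CPM in the BSA (control) libraries, 129, 125, 129 and 143 CPM in those with IL-1β, 119.9, 121, 113 and 120.4 CPM in those with palmitate and 131, 130.1, 126 and 131 CPM with both. The 8 libraries with IL-1β lay above all 8 without it. The log2 fold change was 0.22 with IL-1β (SE 0.04, adjusted p = 0.000438, edgeR) and 0.19 with both (SE 0.04, adjusted p = 0.000331). With palmitate it was 0.07 (95% interval -0.02 to 0.16, adjusted p = 0.218), and under upper-quartile scaling that value was -0.00030. Tmem165, which shares 11.9% of the Clock exons on the opposite strand, was not called in any of the 3 comparisons.

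**Figure D2:**
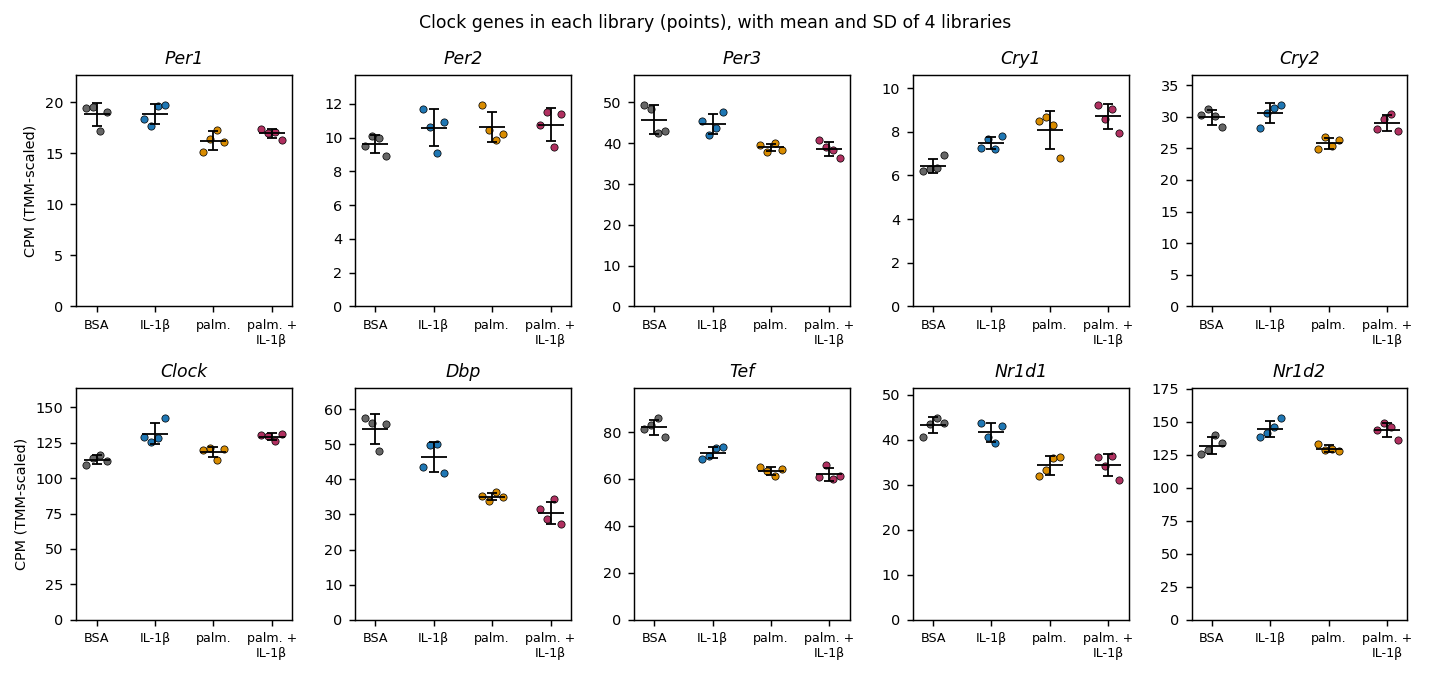
CPM of each clock gene (vertical axes, from 0) in the 16 libraries, 1 point per library, with a line at the mean and bars of 1 SD of the 4 libraries of BSA (BSA control), IL-1β, palm. (palmitate) and palm. + IL-1β (both). Dbp, Tef, Nr1d1 and Per3 lie lower in all 8 libraries with palmitate than in the 4 of BSA (control), Cry1 lies higher in 7 of them, and Clock lies higher in the 8 libraries with IL-1β.

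IL-1β against BSA (control) asked what the cytokine does without the fatty acid. Of the 10 members 4 were called, of which 2, Clock and Nr1d2, rose and 2, Dbp and Tef, fell. Of all genes tested 15.1% were called, 10.1% higher and 4.97% lower, and with upper-quartile scaling 43.5% of the called genes were higher in place of 67.1%. The median log2 fold change of the members was 0.02, against -0.0049 over all genes. Dbp fell by 0.23 on the log2 scale (SE 0.07, adjusted p = 0.0201, edgeR). That call was lost without BSA (control) replicate 1, 2 or 4 or IL-1β replicate 5 or 8 (adjusted p 0.0543 to 0.0802), and the number of members called went down to 2 without BSA (control) replicate 1 or 2 or IL-1β replicate 8. Clock and Tef kept their calls under all 13 alternatives run.

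Palmitate + IL-1β against BSA (control) set both agents against neither. Of the 10 members 8 were called, with Per1, Per3, Dbp, Tef and Nr1d1 lower and Cry1, Clock and Nr1d2 higher. Of all genes tested 47.3% were called, 24.8% higher and 22.5% lower, with 38.7% of the called genes higher under upper-quartile scaling in place of 52.4%. The median log2 fold change was -0.10 over the members and 0.0017 over all genes. The 3 comparisons against BSA (control) share their control libraries and are therefore not independent of each other.

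**Figure D3:**
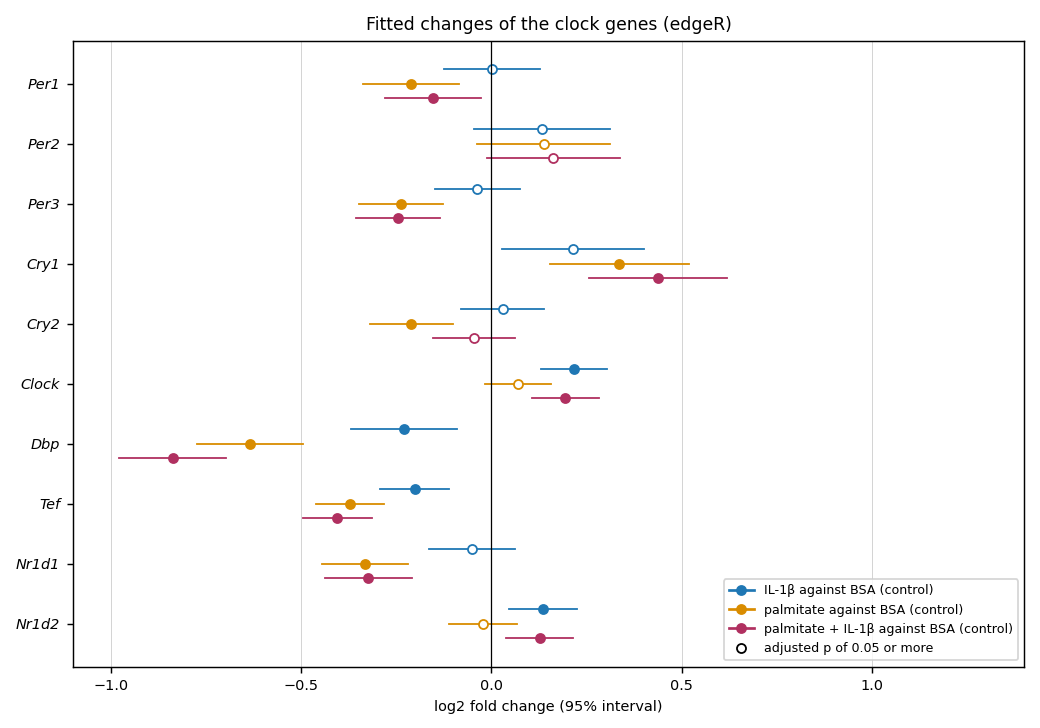
Fitted log2 fold change against BSA (control) (horizontal axis) of each clock gene with IL-1β, palmitate or both, with bars for the 95% interval. Filled points passed an adjusted p of 0.05 and open points did not. Dbp lies farthest from 0, at -0.63 with palmitate and -0.84 with both, and Cry1 is the farthest on the higher side, at 0.34 and 0.44.

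The same question was put within cells that received the cytokine, palmitate + IL-1β against IL-1β. Of the 10 members 5 were called, where 35.0% of all genes were, 18.9% higher and 16.1% lower. Dbp (log2 fold change -0.61, SE 0.07, adjusted p = 8.06e-08, edgeR), Nr1d1 (-0.27, SE 0.06, adjusted p = 0.000248), Per3 (-0.21, SE 0.05, adjusted p = 0.00283) and Tef (-0.20, SE 0.04, adjusted p = 0.000502) fell. These 4 kept their calls under all 13 alternatives. In all 5 called members, Cry1 included, the libraries of the compared conditions did not overlap. The share of all genes tested that separate in this way was not computed. Cry1 rose by log2 0.22 at the border of the threshold (adjusted p = 0.0499), and 12 of 13 alternatives put it outside. Among these, the call was lost without IL-1β replicate 5, 6, 7 or 8 or palmitate + IL-1β replicate 13, 14 or 15 (adjusted p 0.0525 to 0.157). Per1 stood just outside (-0.15, adjusted p = 0.0549) and passed the threshold in 6 of 13 alternatives, DESeq2 among them (adjusted p = 0.0444). The median log2 fold change of the members was -0.12, against 0.0074 over all genes.

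Palmitate + IL-1β against palmitate gave the effect of the cytokine on cells that also received the fatty acid. Of the 10 members 2 were called, Nr1d2 (log2 fold change 0.15, SE 0.04, adjusted p = 0.0236, edgeR) and Cry2 (0.16, SE 0.05, adjusted p = 0.0465), both higher. Of all genes 9.81% were called, 5.71% higher and 4.10% lower. In this fit 0 members were called lower by edgeR, while 1, Dbp, had an unadjusted p under 0.05 in that direction (log2 -0.20, adjusted p = 0.0673). Dbp was called lower by DESeq2 (adjusted p = 0.0469) and by edgeR without an expression filter (0.00401), in a fit of only the 8 libraries compared (0.0272) and without palmitate + IL-1β replicate 15 (0.0121). Clock was not called by edgeR (0.13, adjusted p = 0.0585) and was by DESeq2 (adjusted p = 0.0473). In both called genes the 4 libraries with both agents lay above the 4 with palmitate, a separation whose share over all genes was not computed. The Cry2 call was lost in 7 of 8 omissions of 1 library, without palmitate replicate 9, 10, 11 or 12 or palmitate + IL-1β replicate 13, 14 or 15 (adjusted p 0.0551 to 0.129), and the Nr1d2 call without palmitate replicate 10, 11 or 12 or palmitate + IL-1β replicate 13, 14 or 15 (adjusted p 0.0538 to 0.102). With 1 library left out the number called ranged from 0 to 2, and without palmitate + IL-1β replicate 15 the 1 member called was Dbp, lower. The Cry2 call was also lost with upper-quartile scaling (adjusted p = 0.0591), without an expression filter (0.227) and in the fit of 8 libraries (0.0597), and the Nr1d2 call without an expression filter (0.0982).

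A difference between the effects of palmitate in the presence and absence of IL-1β was tested as an interaction. It was called for 0 of the 10 members by edgeR and for 0 by DESeq2, with 1 member, Tef, at an unadjusted p under 0.05 (log2 0.17, 95% interval 0.04 to 0.30, adjusted p = 0.251). Of all genes tested 1.99% were called. The intervals bound the difference for single genes. For Dbp it was 0.03 (95% interval -0.17 to 0.23), for Nr1d1 0.06 (-0.10 to 0.22), for Cry1 -0.11 (-0.37 to 0.14) and for Cry2 0.13 (-0.02 to 0.29) on the log2 scale. The effects of palmitate on Cry2 with and without IL-1β were therefore not shown to differ.

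Ratios of counts within a library do not depend on its depth or scaling, and they were used to describe how members stood to each other, with no test. Dbp counts were 4.88, 4.74, 4.28 and 4.46 times those of Bmal1 in BSA (control), 3.11, 4.17, 3.83 and 3.21 times with IL-1β, 1.17, 1.27, 1.25 and 1.24 times with palmitate and 1.35, 1.10, 1.63 and 1.17 times with both. The 8 libraries with palmitate lay between 1.10 and 1.63, below all 8 without it, and the IL-1β libraries lay below those of BSA (control). Nr1d1 stood at 0.329 ± 0.00797 of Nr1d2 in BSA (control), 0.289 ± 0.0201 with IL-1β, 0.265 ± 0.0197 with palmitate and 0.24 ± 0.0125 with both, and each treated group lay below the control without overlap. Cry1 stood at 0.216 ± 0.0195 of Cry2 in BSA (control), 0.245 ± 0.0112 with IL-1β, 0.313 ± 0.0374 with palmitate and 0.30 ± 0.0195 with both, where the libraries with palmitate did not overlap the control. Per3 went from 4.77 ± 0.394 times Per2 in BSA (control) to 3.68 ± 0.307 with palmitate and 3.60 ± 0.39 with both, again with no overlap, while Per1 to Per2 (1.96 ± 0.18 against 1.54 ± 0.203 and 1.58 ± 0.17) overlapped throughout. Dbp stood at 0.665 ± 0.0714 of Tef in BSA (control), 0.651 ± 0.0623 with IL-1β, 0.554 ± 0.028 with palmitate and 0.493 ± 0.0649 with both. Each treated group of this ratio overlapped the control.

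**Figure D4:**
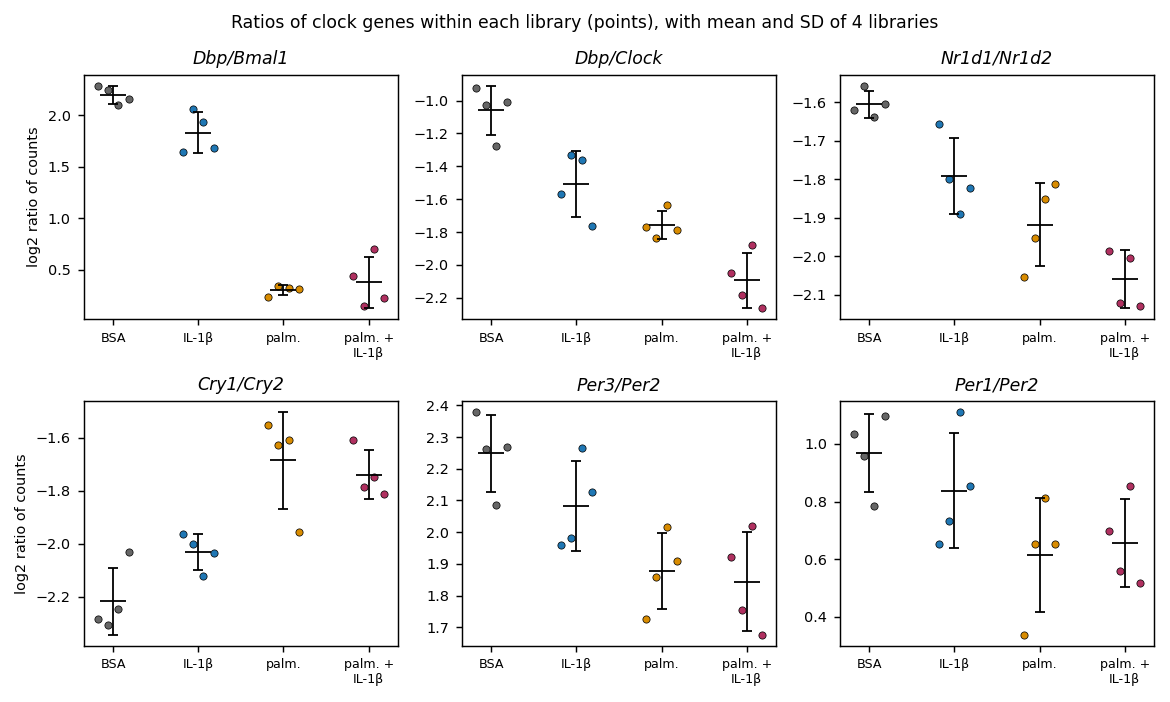
Log2 ratio of the counts of clock gene pairs within each of the 16 libraries (vertical axes, each with its own range), with the mean and SD of 4 libraries for BSA (BSA control), IL-1β, palm. (palmitate) and palm. + IL-1β (both). Dbp against Bmal1 drops from a mean of 2.20 in BSA (control) to 0.30 with palmitate, and Cry1 against Cry2 goes up from -2.22 to -1.69.

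The other genes of the clock were taken as 4 lists with 24 genes, all of which were tested. With palmitate 11 of the 24 were called, 6 higher and 5 lower, with IL-1β 8 (7 higher, 1 lower) and with both 13 (8 higher, 5 lower), where 37.3%, 15.1% and 47.3% of all genes tested were called. The counts of the lists below are to be read against the same shares. Their median log2 fold changes were 0.04, 0.07 and 0.05. Among the 9 other genes of the core loops, 5 were called with palmitate, 3 with IL-1β and 6 with both. Bmal1, the partner of Clock and the target of Rev-erb repression, is listed as Arntl and read 11.8, 11.8, 11.3 and 12.5 CPM in the BSA (control) libraries, 14.0, 11.9, 13.1 and 13.0 CPM in those with IL-1β, 30.0, 26.8, 29.2 and 28.1 CPM in those with palmitate and 23.3, 25.98, 21.1 and 23.4 CPM with both. It rose by log2 1.26 with palmitate (SE 0.07, adjusted p = 2.49e-16, edgeR) and 0.98 with both (SE 0.07, adjusted p = 1.09e-13), the largest rise of any clock gene listed in the palmitate comparison, and was not called with IL-1β alone (0.14, adjusted p = 0.231).

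Rora, an activator of Bmal1, rose by log2 0.37 with palmitate, 0.18 with IL-1β and 0.50 with both (edgeR adjusted p = 3.33e-07, 0.014 and 5.13e-10), and the call with IL-1β was lost with upper-quartile scaling (0.0614) and without BSA (control) replicate 1 or 2 or IL-1β replicate 8 (0.0606 to 0.0978). Rorb, of the same family and low in these cells at 4.15 ± 0.406 CPM in BSA (control), fell by 0.96 with palmitate and 1.04 with both. Bhlhe40 and Bhlhe41, which encode the E-box repressors Dec1 and Dec2, moved apart, with log2 fold changes of 0.79 for Bhlhe40 and -0.37 for Bhlhe41 with palmitate. Cipc, a repressor of Clock, was called with IL-1β (0.22) and both (0.38). The IL-1β call was lost with upper-quartile scaling (adjusted p = 0.0609) and without BSA (control) replicate 1, 2 or 4 or IL-1β replicate 7 or 8 (0.0506 to 0.0973). Bmal2, Npas2 and Ciart were not called against BSA (control).

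Of the other PAR bZIP factor and its antagonist, Hlf was near the lower limit (0.417 ± 0.14 CPM in BSA (control)) and not called, and Nfil3, which binds D-boxes as a repressor, was called with both agents (log2 0.24, edgeR adjusted p = 0.00736), a call lost with upper-quartile scaling (adjusted p = 0.0664), without an expression filter (0.0515) and without BSA (control) replicate 2 (0.0778). Among the 7 modifiers of Per and Cry proteins, 3 were called with palmitate, 1 with IL-1β and 3 with both, shares near those of all genes tested. The kinase gene Gsk3b rose by 0.26, 0.21 and 0.35 with palmitate, IL-1β and both. The ubiquitin ligase genes Btrc and Fbxl21 fell by 0.24 and 0.84 with palmitate and by 0.33 and 0.83 with both on the log2 scale, whereas Fbxw11, another of this class, was not called against BSA (control). Csnk1d, Csnk1e and Csnk2a1, which encode kinase subunits, were not called in these comparisons either.

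Of 6 output and input genes, 3 were called with palmitate, 4 with IL-1β and 3 with both, beside 37.3%, 15.1% and 47.3% of all genes tested. Noct, a rhythmic output gene that encodes Nocturnin, rose by log2 0.67 with palmitate, 0.83 with IL-1β and 1.10 with both. Sik1, which is induced by cAMP signals, rose by 1.05, 0.44 and 0.83, and Tsc22d3, a glucocorticoid target, fell by 0.66, 0.19 and 0.70. The IL-1β call of Tsc22d3 was lost without BSA (control) replicate 3 or IL-1β replicate 6 (adjusted p 0.0966 and 0.0984). Fkbp5, another glucocorticoid target, and Usp2 were not called, and Wee1 was called with IL-1β alone (0.23), a call lost with upper-quartile scaling (adjusted p = 0.0904) and without BSA (control) replicate 1, 2 or 4 or IL-1β replicate 6 or 7 (adjusted p 0.0588 to 0.159).

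**Figure D5:**
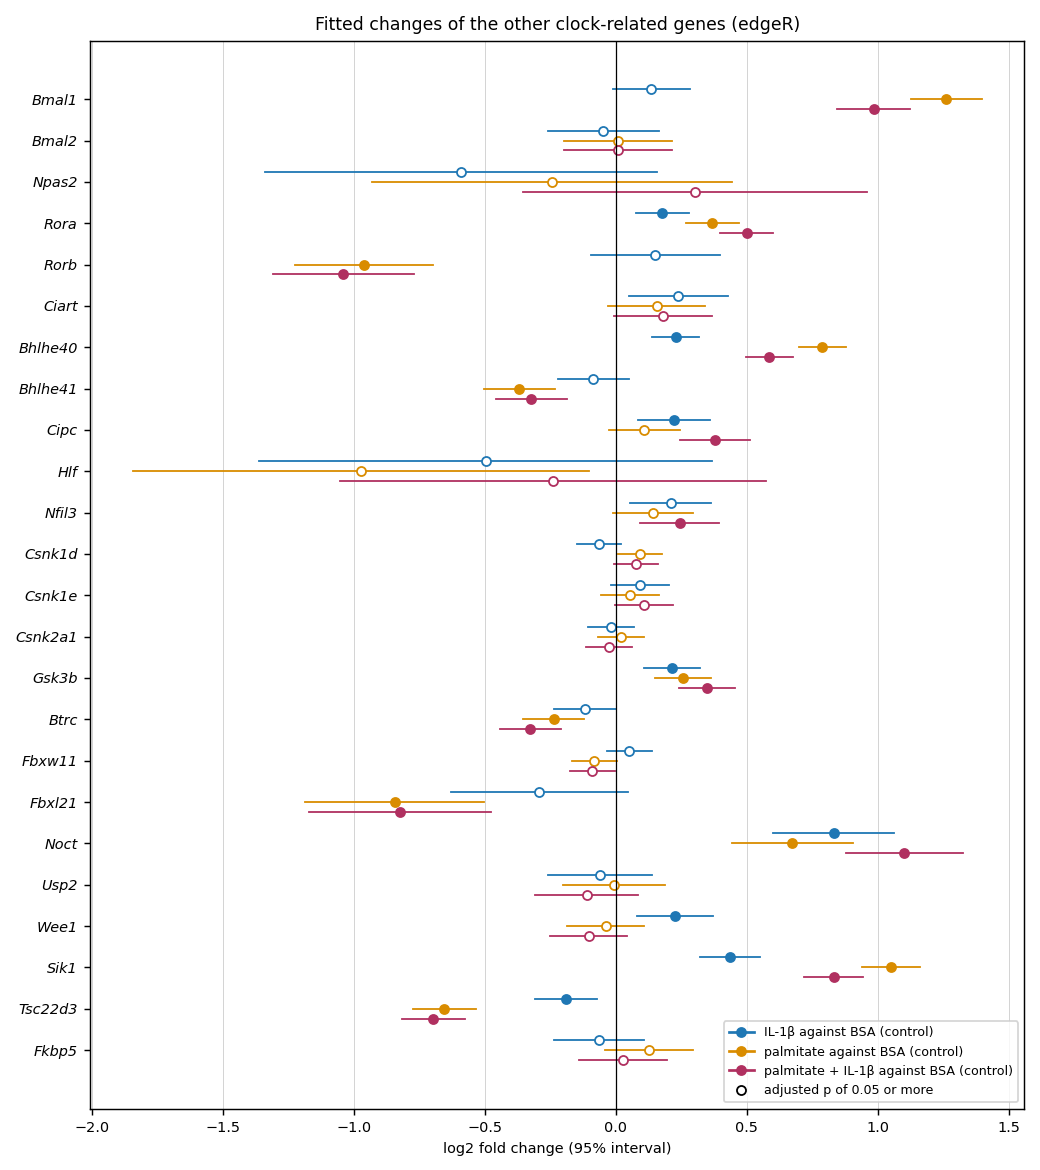
Fitted log2 fold change against BSA (control) (horizontal axis) of the 24 other clock genes tested, with bars for the 95% interval, for IL-1β, palmitate and both. Filled points passed an adjusted p of 0.05. Bmal1 (1.26) and Sik1 (1.05) lie farthest on the higher side with palmitate, and the wide bars of Npas2 and Hlf belong to genes of low counts.

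For the 3 members whose condition means ranged most, the genes with the nearest profile over the 16 libraries were sought among 11817 genes, by the root mean square difference of centred log2 CPM. Nearest to Dbp, whose condition means ranged over 0.84, were Plekhg2 (difference 0.0956) and Efnb1 (0.106). Nearest to Cry1 (range 0.43) were Gtf2h1 (0.0737) and Dhx9 (0.0758), and nearest to Tef (range 0.40) were Wls (0.0447) and Ccni (0.0533). None of the 6 is on the clock lists. This is a description of likeness in these libraries.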

How the data were processed

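RNA of the 16 mGF libraries was sequenced in bulk. Per the labels the kit was one for stranded total RNA, whereas the methods of the study describe oligo(dT)-primed SMART-Seq, and which applies was not settled. The authors demultiplexed with bcl2fastq2, trimmed with Trimmomatic 0.39, aligned with STAR 2.7.10a to GRCm39 (GENCODE vM33) and counted by strand with HTSeq 2.0.9. The deposited values are raw counts per gene for each library, without normalization, and 18.3% to 21.4% of each column lay in rows of unassigned reads that name no gene and were left out.

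From these counts, edgeR 4.0.16 (R 4.3.3) was run with TMM scaling, filterByExpr (minimum count 10, total 15), glmQLFit with robust estimation and glmQLFTest, with all 16 libraries in 1 fit, a mean per condition and no covariate. Genes were called at a Benjamini-Hochberg adjusted p under 0.05 over 16306 genes, and intervals are 95%. TMM factors were 0.970 to 1.04 and the common biological coefficient of variation 6.08%. No pair of replicates agreed within sampling noise (chi-square per degree of freedom 2.66 to 19.8 over 24 pairs). No transcript of another gene matched a member at 95% identity or more. Positions are from GENCODE vM39 (GRCm39), promoters from RefSeq (GRCm38.p6). Alternatives were DESeq2 1.42.0, upper-quartile scaling, no expression filter, a minimum of 10 counts in each library, only the 8 libraries compared, and leaving out each library. The steps were tested on simulated counts.

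Each member and each gene of the lists is named, with 2 genes nearest in profile (average log2 CPM of at least 1) for the 3 members of widest range. Members, lists and pairs for ratios were chosen with earlier results of these data known. Besides the 24 listed, 2 genes of the design are not reported here.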

Additional observations from a re-analysis of the deposited data

Results flagged for a closer look

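By Dixon's test at the 95% level 2 libraries stood apart within their condition, among 40 sets of 4 libraries tested, where chance gives about 1 in 20. Cry1 read 6.92 CPM in BSA (control) replicate 4, above 6.22 to 6.33 CPM in the other 3. Clock read 113.0 CPM in palmitate replicate 11, below the other 3, which lay at 119.9 to 121 CPM. Cry1 with palmitate kept its call whichever single library was left out.

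The effects of palmitate in the presence and absence of IL-1β differed for 3 of the 24 other clock genes tested, by the interaction in edgeR. Of all 16306 genes tested 1.99% were called, 26 with a positive and 298 with a negative value, so a negative sign was the common one. The interaction was -0.41 for Bmal1 (SE 0.10, adjusted p = 0.0113), -0.43 for Bhlhe40 (SE 0.06, adjusted p = 2.34e-05) and -0.65 for Sik1 (SE 0.08, adjusted p = 5.46e-07) on the log2 scale. Each rose with palmitate, and rose less over IL-1β than over BSA (control). Their levels went from 11.8 ± 0.517 to 28.5 ± 1.39 CPM for Bmal1, 70.2 ± 3.21 to 121 ± 4.05 CPM for Bhlhe40 and 22.4 ± 1.75 to 46.5 ± 1.26 CPM for Sik1 without IL-1β. With IL-1β they went from 13.0 ± 0.822 to 23.4 ± 2.01, 82.1 ± 1.65 to 105 ± 5.19 and 30.3 ± 1.27 to 39.9 ± 1.74 CPM. The 3 differences kept their calls under all 20 alternatives run.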

How the results depend on the processing

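No paired analysis was possible because the replicate numbers are unique over the 16 libraries. The 7 calls of members with palmitate held under all 13 alternatives. The count called in palmitate + IL-1β against palmitate was 2, and 4 with DESeq2, 1 with upper-quartile scaling and 1 without an expression filter, where the 1 was Dbp, lower, and neither Cry2 nor Nr1d2 was called. Leaving out 1 library gave counts of 7 to 7 for palmitate, 2 to 4 for IL-1β and 6 to 8 for both against BSA (control), 4 to 5 for both against IL-1β, 0 to 2 for both against palmitate and 0 to 0 for the interaction. The cause of these shifts was not tested, and fewer libraries enter each fit.

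Values that changed sign belonged to members not called. With upper-quartile scaling these were Clock with palmitate (-0.000296), Per1 (-0.0457) and Cry2 (-0.0178) with IL-1β, Per2 in both against IL-1β (-0.00218) and Nr1d1 in both against palmitate (-0.000499). Without an expression filter they were Per1 with IL-1β (-0.0114) and Nr1d1 in both against palmitate (-0.00919), with at least 10 counts in every library Per1 with IL-1β (-0.0121), and in the 8 libraries compared Nr1d1 in both against palmitate (-0.00231). Leaving out 1 library moved Per1 with IL-1β over -0.0373 to 0.0322 and Nr1d2 with palmitate over -0.0568 to 0.00769. In both against IL-1β, Clock ranged over -0.0428 to 0.0194, Nr1d2 over -0.0343 to 0.0189 and Per2 over -0.0514 to 0.0897, and in both against palmitate Nr1d1 over -0.0191 to 0.0556, Per2 over -0.0120 to 0.0845 and Per3 over -0.0411 to 0.0179. The interaction ranged over -0.0335 to 0.0800 for Dbp, -0.0159 to 0.0409 for Nr1d2 and -0.0104 to 0.0618 for Per3.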
